A study of Mus musculus with 6 samples.

Results

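Reactive astrocyte induced genes are the genes that astrocytes switch on, or express more strongly, when nervous tissue is injured. 10 such genes were followed in mouse optic nerve after optic nerve crush (ON-CR): Lcn2, Serpina3n, Cp, Steap4, Cd44, Osmr, Emp1, Gfap, Vim and Nes. They were chosen by gene symbol from the known reactive astrocyte repertoire, with earlier results of these data known. All 10 were found among the 25755 genes of the table. RNA of optic nerves was sequenced in bulk in 6 libraries, labelled as 3 mice with sham surgery (mice 1, 2 and 3) and 3 mice with ON-CR (mice 4, 5 and 6). All 6 were from Nf1flox/flox; hGFAP-Cre mice aged 3 months. In the study, surgery was performed at 6 weeks of age and nerves were examined at 12 weeks. Cre driven by the human GFAP promoter deletes Nf1 in neuroglial progenitors and therefore in most of the astrocytes and oligodendrocytes that descend from them, so both groups carried the deletion and no group with intact Nf1 was sequenced. Nf1 itself was at 364, 447 and 343 in sham mice and 416, 438 and 380 in ON-CR mice, in the normalized units used below, which checks nothing because the groups share the deletion.

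Astrocytes respond to injury with a graded reaction. They enlarge and fill with intermediate filaments built of GFAP, vimentin and nestin, they secrete proteins such as lipocalin 2 and the protease inhibitor SerpinA3N, and they present receptors such as CD44 and the oncostatin M receptor. In the optic nerve they are the main glia beside oligodendrocytes and surround the axons of retinal ganglion cells, which degenerate after a crush. Cytokines of the IL-6 family, acting through gp130 and the transcription factor STAT3, are a well known trigger of this response. None of the 10 genes is made by astrocytes alone. Vim and Cd44 are also expressed by immune, vascular and fibroblast cells, and Lcn2 also by neutrophils.

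Values are estimated read counts that the authors divided by 1 factor per library (median normalization), so that 1 read was worth 0.885 to 1.06 units, over libraries of 17414091 to 23621006 estimated reads. A gene was called changed where limma on log2(value + 1) gave an adjusted p (Benjamini-Hochberg over all 25755 genes) at or under 0.05. By this rule 250 genes (0.971%) were called higher and 290 (1.13%) lower after ON-CR. The split depends on the scaling, being 421 higher and 195 lower when all libraries were given the same total, and 249 higher and 144 lower when they were scaled to 15 astrocyte identity markers. The astrocyte identity of the tissue is plain in its markers, since Aqp4, the astrocyte water channel, lay between 15386 and 26518 in all 6 libraries. Of 5 sex-linked transcripts, 1 (Xist) was called higher (adjusted p = 0.000509 by limma) and 0 lower. Xist was between 2.14 and 30.9 in sham mice and between 2708 and 6357 in ON-CR mice, and the Y-linked Ddx3y was between 1291 and 1645 in sham mice, 976 in ON-CR mouse 4, 4.19 in mouse 5 and 0 in mouse 6. Ddx3y and the Y-linked Kdm5d and Uty were lower in every ON-CR mouse than in every sham mouse. The Y-linked Eif2s3y overlapped, at 358 in sham mouse 2 and 363 in ON-CR mouse 4. The library of ON-CR mouse 4 held both Xist (2708) and Y-linked transcripts. The labels name 1 mouse for each library and give no sex. For qPCR of optic nerves the paper used 2 mice per sample. Whether nerves of several mice were pooled for sequencing is not given in the sources used here, so mouse numbers and n count libraries. With no sham library at the Xist level of the ON-CR libraries, sex and surgery cannot be told apart. In bulk tissue, more cells of a type and more RNA per cell cannot be told apart either.

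The promoters of the members show which of the usual injury-response motifs lie close to their start sites. Windows of 300 bases, from 250 before to 50 after a start site in RefSeq (GRCm38.p6), were found for all 10 members, 12 windows in all because Cp and Emp1 have a pair each. Both strands were searched for the STAT letters TTCNNNGAA, the AP-1 letters TGANTCA, the C/EBP letters TTGCNNAA and the TATA box TATAAA. The STAT letters were in the windows of Steap4, Emp1 and Gfap, 3 of the 12 windows, against 8.30% of 32851 windows of all genes. The AP-1 letters were in those of Cp, Osmr and Emp1 (7.81% of all windows), the C/EBP letters in those of Lcn2, Cp and Steap4 (10.8%), and the TATA box in those of Cp, Steap4 and Vim (13.6%). Each of these was also in 3 of the 12 windows. In Emp1 a STAT and an AP-1 match overlap. The windows of Serpina3n, Cd44 and Nes held none of the 4. Of the 5 members called higher below, none had the STAT letters in its window. With only 8.30% of all windows holding these letters, that count is a description only. The sequences of 5 members, printed 5′ to 3′ on the strand of the gene from 250 bases before to 20 after the start site with matches in capitals, show these cases. Lcn2 (chr2:32387720-32387989, minus strand) and Vim (chr2:13574061-13574330, plus strand) are members that rose and hold a C/EBP and a TATA match. Osmr (chr15:6874294-6874563, minus strand) rose and has its AP-1 match just inside the transcript. Gfap (chr11:102897181-102897450, minus strand) has a STAT match across its start site, and Steap4 (chr5:7960222-7960491, plus strand) holds a STAT, a C/EBP and a reversed TATA match. Both of these were not called. A match is a description of the letters and says nothing of binding.
Lcn2: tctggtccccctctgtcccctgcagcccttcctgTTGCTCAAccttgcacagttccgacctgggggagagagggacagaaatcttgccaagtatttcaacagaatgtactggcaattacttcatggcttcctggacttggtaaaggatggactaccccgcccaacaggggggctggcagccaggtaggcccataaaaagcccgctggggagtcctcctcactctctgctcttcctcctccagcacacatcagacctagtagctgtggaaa
Vim: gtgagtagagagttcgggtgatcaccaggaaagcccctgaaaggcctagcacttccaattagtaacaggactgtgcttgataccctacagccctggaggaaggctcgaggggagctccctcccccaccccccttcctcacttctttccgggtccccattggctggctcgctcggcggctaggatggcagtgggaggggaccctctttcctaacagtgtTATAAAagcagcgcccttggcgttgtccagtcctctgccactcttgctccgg
Osmr: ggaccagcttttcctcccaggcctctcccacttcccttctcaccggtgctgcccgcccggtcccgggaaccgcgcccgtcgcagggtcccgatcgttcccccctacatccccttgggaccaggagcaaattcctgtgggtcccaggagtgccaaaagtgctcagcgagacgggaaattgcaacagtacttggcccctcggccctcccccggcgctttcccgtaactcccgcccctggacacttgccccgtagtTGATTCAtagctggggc
Gfap: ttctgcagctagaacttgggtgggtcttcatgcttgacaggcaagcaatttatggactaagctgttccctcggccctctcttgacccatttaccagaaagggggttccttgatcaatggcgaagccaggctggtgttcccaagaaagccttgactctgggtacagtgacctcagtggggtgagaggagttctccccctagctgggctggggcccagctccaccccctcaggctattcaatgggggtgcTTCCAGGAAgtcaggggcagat
Steap4: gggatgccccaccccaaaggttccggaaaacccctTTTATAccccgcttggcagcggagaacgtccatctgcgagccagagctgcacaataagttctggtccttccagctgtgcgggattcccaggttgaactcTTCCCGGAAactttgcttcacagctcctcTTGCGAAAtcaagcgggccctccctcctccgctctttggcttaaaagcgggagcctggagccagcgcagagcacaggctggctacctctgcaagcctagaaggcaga

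Of the 10 members, 5 were called higher after ON-CR and 0 lower, compared with 0.971% of all genes called higher. These were Lcn2, Serpina3n, Cd44, Osmr and Vim. Among the 15373 genes with a mean value at least that of the lowest member, Steap4, the share called higher was 1.46%. In 7 of the 10, the 5 called plus Gfap and Nes, all 3 ON-CR mice lay above all 3 sham mice, compared with 10.5% of all genes. The fold change was above 0 for all 10, with a median of 1.08 on the log2 scale, against 0.03 for all 25755 genes. Because the members were chosen with earlier results of these data known, these counts and shares are a description only.

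**Figure D1:**
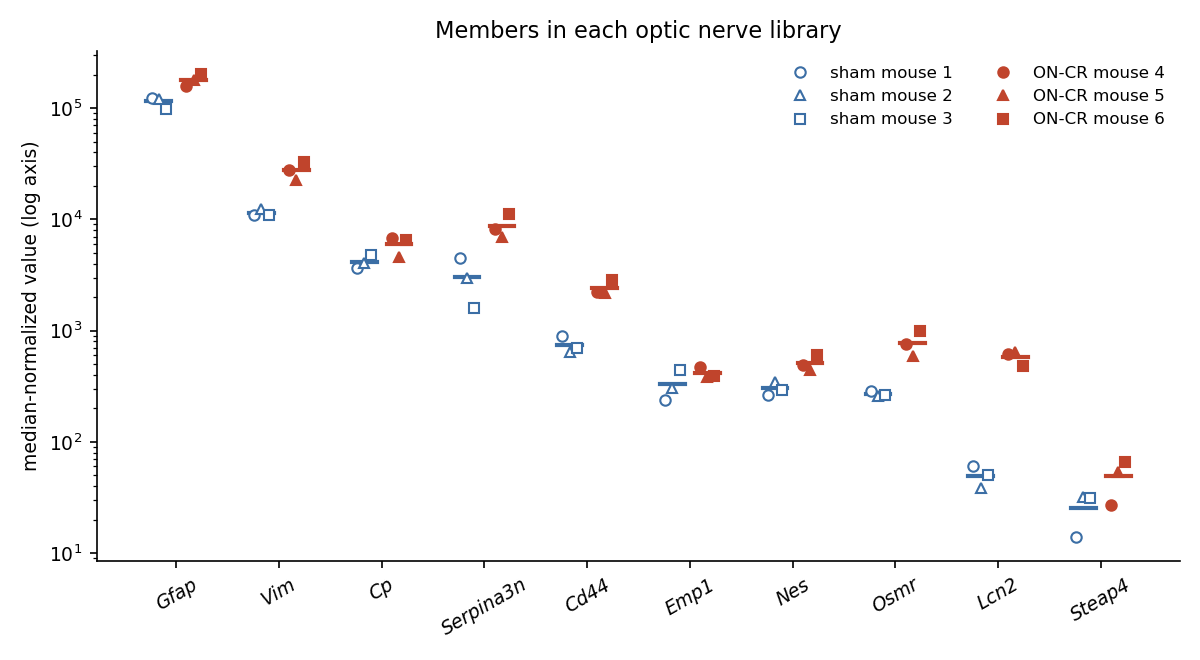
Median-normalized value (log axis) of each member in each optic nerve library, with open blue symbols for sham mice 1 to 3, filled red symbols for ON-CR mice 4 to 6 and a bar at the mean of each group. Lcn2 shows the widest gap between the groups, from 38.1 to 60.5 in sham mice and from 480 to 647 in ON-CR mice, while Cp, Emp1 and Steap4 overlap.

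Among the secreted members, Lcn2 changed most. It encodes lipocalin 2, which binds iron-carrying siderophores and is released by reactive astrocytes and by neutrophils. Lcn2 was at 60.5, 38.1 and 50.7 in sham mice 1, 2 and 3 and at 611, 647 and 480 in ON-CR mice 4, 5 and 6. The groups were far apart, with the lowest ON-CR mouse 7.93 times the highest sham mouse. The log2 fold change was 3.53 ± 0.22 (SE, n = 3 and 3, adjusted p = 0.000136 by limma), and the means differed 11.6-fold. The Lcn2 gene (ENSMUSG00000026822.14) lies on chromosome 2 from 32384633 to 32388252 of GRCm38.

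Serpina3n (ENSMUSG00000021091.8, chromosome 12 from 104406729 to 104414329) encodes a secreted inhibitor of serine proteases. It was at 4488, 2985 and 1595 in sham mice and at 8140, 6962 and 11091 in ON-CR mice. Sham mouse 3 was low and ON-CR mouse 6 high, and the groups did not overlap. The log2 fold change was 1.63 ± 0.31 (SE, n = 3 and 3, adjusted p = 0.0296 by limma), with a 95% interval from 0.93 to 2.33. The call was lost when sham mouse 2 (adjusted p = 0.136), sham mouse 3 (0.0558), ON-CR mouse 4 (0.0546) or ON-CR mouse 6 (0.211) was left out in limma, and under a robust fit (0.177). 5 Serpina3 paralogs that share much of its sequence were Serpina3c, Serpina3f, Serpina3g, Serpina3i and Serpina3m. They summed to 40.8 to 115 in sham mice and 118 to 528 in ON-CR mice, a small part of the Serpina3n values. The fold change was above 0 for all 5 (median 1.94 on the log2 scale), and 0 of the 5 were called.

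The members that oxidize or reduce metals, Cp and Steap4, were not called. Ceruloplasmin (Cp, chromosome 3 from 19957054 to 20009145), a copper-bound enzyme that oxidizes iron as it leaves the cell, was at 3674, 4077 and 4776 in sham mice and 6794, 4603 and 6486 in ON-CR mice. ON-CR mice 4 and 6 lay above all sham mice and mouse 5 within them. The log2 fold change of Cp was 0.50 ± 0.16 (SE, n = 3 and 3, adjusted p = 0.164 by limma), and it passed the threshold only when ON-CR mouse 5 was left out (0.68, adjusted p = 0.0247 by limma). Exons of Cp overlap those of Hps3 on the other strand, and the counting is not stated to use strand. Hps3 averaged 283 ± 22.8 (SD, n = 3) after sham surgery and 342 ± 56.9 (SD, n = 3) after ON-CR, far below Cp. Steap4, a membrane reductase of iron and copper, was the lowest member, at 13.8, 31.9 and 31.0 in sham mice and 26.9, 53.5 and 66.5 in ON-CR mice. These values rest on 13 to 64 estimated reads per library, and ON-CR mouse 4 lay among the sham mice. In Steap4 the log2 fold change was 0.91 with a 95% interval from -0.10 to 1.91 (adjusted p = 0.369 by limma).

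Both surface receptors rose. Cd44 (ENSMUSG00000005087.17, chromosome 2 from 102811141 to 102901665) encodes the receptor for hyaluronan, through which reactive astrocytes and infiltrating cells hold on to the matrix. It was at 890, 638 and 694 in sham mice and 2237, 2182 and 2821 in ON-CR mice, with the lowest ON-CR mouse 2.45 times the highest sham mouse. Cd44 thus had a log2 fold change of 1.71 ± 0.16 (SE, n = 3 and 3, adjusted p = 0.000957 by limma). Osmr, the oncostatin M receptor subunit that pairs with gp130, was at 288, 260 and 265 in sham mice and 755, 590 and 982 in ON-CR mice. Sham mice were close together and ON-CR mice spread widely above them. For Osmr the log2 fold change was 1.48 ± 0.18 (SE, n = 3 and 3, adjusted p = 0.00396 by limma). Emp1 (chromosome 6 from 135362545 to 135383173), a small membrane protein with 4 membrane-spanning stretches that is counted among the ischemia-type astrocyte genes, was at 240, 303 and 440 in sham mice and 475, 383 and 390 in ON-CR mice. Sham mouse 3 lay above ON-CR mice 5 and 6. Emp1 had a log2 fold change of 0.38 with a 95% interval from -0.10 to 0.86 (adjusted p = 0.432 by limma).

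The 3 intermediate filament genes were all higher in every ON-CR mouse than in every sham mouse, yet Vim alone was called. Vim (vimentin) was at 11022, 12288 and 10832 in sham mice and 27519, 22420 and 32768 in ON-CR mice, a log2 fold change of 1.26 ± 0.15 (SE, n = 3 and 3, adjusted p = 0.00300 by limma). Gfap, the filament protein that defines astrocytes, was at 123408, 121993 and 99186 in sham mice and 156465, 178302 and 202957 in ON-CR mice. The groups of Gfap did not overlap, with the lowest ON-CR mouse 1.27 times the highest sham mouse. The log2 fold change of Gfap was 0.64 ± 0.17 (SE, n = 3 and 3, adjusted p = 0.0859 by limma), with a 95% interval from 0.27 to 1.01. It passed the threshold under the robust fit (adjusted p = 0.0202 by limma) and with the same library total (0.0151). Nes (nestin, chromosome 3 from 87971078 to 87980451), a filament of progenitors that reactive astrocytes express again, was at 265, 347 and 293 in sham mice and 489, 438 and 604 in ON-CR mice. Nes had a log2 fold change of 0.75 ± 0.17 (SE, n = 3 and 3, adjusted p = 0.0535 by limma), just above the threshold of 0.05, and it was called under 5 alternatives listed with the limits.

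**Figure D2:**
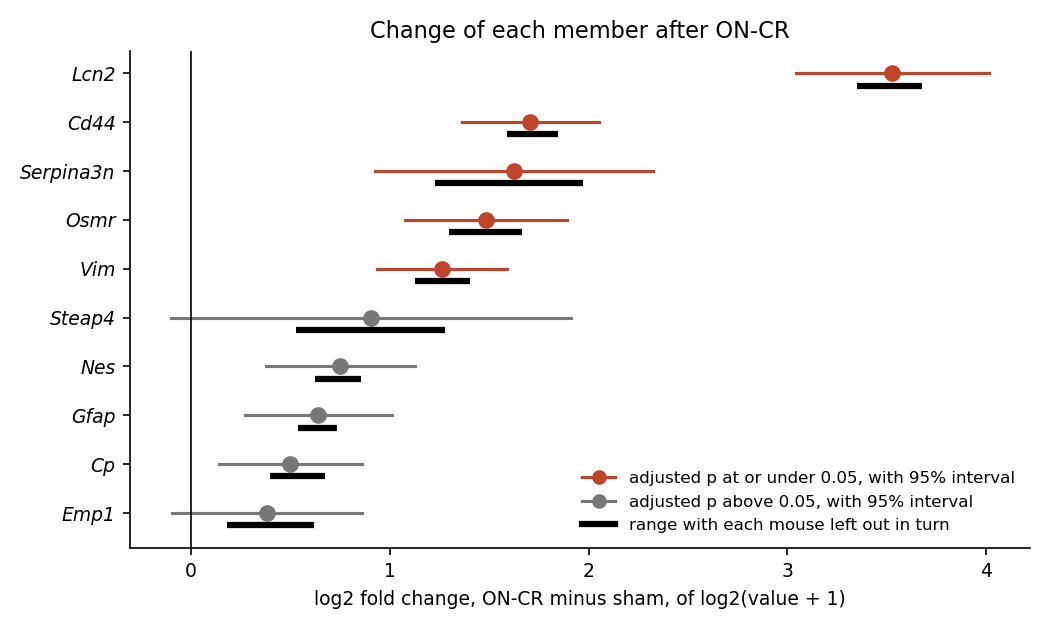
Log2 fold change of each member, ON-CR minus sham, of log2(value + 1), as points with 95% intervals from limma (red where the adjusted p was at or under 0.05, grey where it was above) and, as black bars, the range of estimates with each mouse left out in turn. Lcn2 stands at 3.53, Cd44, Serpina3n, Osmr and Vim between 1.26 and 1.71, and the intervals of Steap4 and Emp1 include 0.

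Because the filament proteins form filaments together, their proportions were compared within each library. These ratios were chosen after the values were seen, and with 3 against 3 mice an exact permutation test cannot go below 0.1. The ratio of Gfap to Vim was 11.2, 9.93 and 9.16 in sham mice and 5.69, 7.95 and 6.19 in ON-CR mice (exact permutation p = 0.1, two-sided). Relative to Gfap, Vim was higher in every ON-CR mouse than in any sham mouse. The ratio of Vim to Nes went from 41.5, 35.4 and 37.0 in sham mice to 56.3, 51.2 and 54.2 in ON-CR mice (exact permutation p = 0.1, two-sided). The ratio of Gfap to Nes overlapped between groups, at 385 ± 69.7 (SD, n = 3) after sham surgery and 354 ± 46.2 (SD, n = 3) after ON-CR (exact permutation p = 0.5, two-sided). Against a marker of astrocyte identity the picture depended on the marker. The ratio of Gfap to S100b, a calcium-binding protein of astrocytes that oligodendrocyte lineage cells also make, was 6.64, 7.17 and 6.97 in sham mice and 16.8, 18.7 and 18.9 in ON-CR mice (exact permutation p = 0.1, two-sided), whereas the ratio of Gfap to Aqp4 overlapped, at 6.74 ± 1.11 (SD, n = 3) and 7.90 ± 1.73 (SD, n = 3) (exact permutation p = 0.4, two-sided). S100b was itself called lower after ON-CR (log2 fold change -0.75, adjusted p = 0.0185 by limma), while Aqp4 was not called (0.43).

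**Figure D3:**
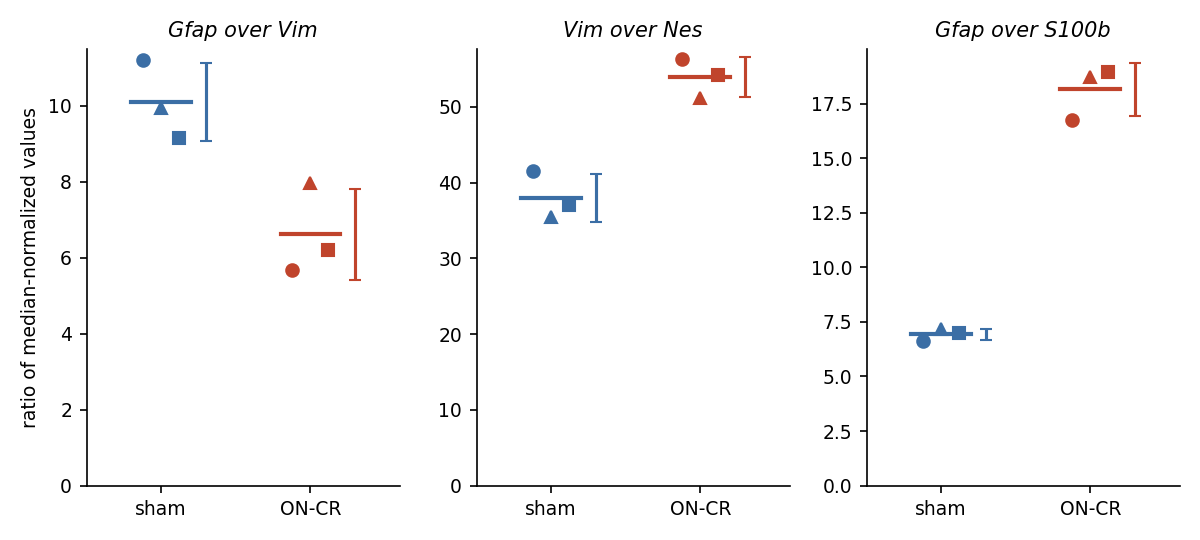
Ratio of median-normalized values of Gfap to Vim, Vim to Nes and Gfap to S100b in each library, with circles for mice 1 and 4, triangles for mice 2 and 5 and squares for mice 3 and 6, a bar at the mean and the SD drawn beside the points (blue, sham; red, ON-CR; axes start at 0). Gfap to Vim is lower in all 3 ON-CR mice, at 5.69 to 7.95 against 9.16 to 11.2 in sham mice, and the other ratios drawn are higher. The ratios of Gfap to Nes and Gfap to Aqp4, which overlapped between the groups, are not drawn.

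Levels of different genes were compared per kilobase of exon (annotated exons of GRCm38), as mean normalized value per kb. In sham mice Gfap led at 27231, followed by Vim at 2399, Serpina3n at 1464, Cp at 437 and Cd44 at 109. Emp1 at 55.2 and Nes at 47.0 overlapped in range, as did Osmr at 22.4 and Lcn2 at 19.0, and Steap4 was lowest at 8.10. After ON-CR Gfap stood at 42494, Vim at 5813 and Serpina3n at 4230 per kb, the last pair now overlapping in range. Cp at 623 and Cd44 at 356 kept their places, and Lcn2 moved from ninth to sixth at 221. Nes at 79.5, Emp1 at 70.1 and Osmr at 64.0 followed, neighbours overlapping in range, and Steap4 remained last at 15.5. Lcn2 was thus the most changed of the 10 while its level stayed far below that of Gfap.

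The members differed among the 3 ON-CR mice. Mouse 6 had the highest ON-CR value of 7 members (Serpina3n, Steap4, Cd44, Osmr, Gfap, Vim and Nes), while it was highest for 32.9% of all genes. Mouse 5 had the lowest value of 7 members (Serpina3n, Cp, Cd44, Osmr, Emp1, Vim and Nes), against 36.1% of all genes. The library of mouse 5 also stood apart in neurofilament transcripts, with Nefl at 1666 against 173 and 205 in ON-CR mice 4 and 6, and Ina at 497 against 111 and 141, and their part in the members' values was not tested. Lcn2 ran the other way, highest in mouse 5 and lowest in mouse 6. In mouse 4, the ON-CR library with both Xist and Ddx3y well above the floor of 3 reads, 9 of the 10 members lay above all sham mice, the exception being Steap4, against 28.4% of all genes. The corresponding counts were 8 in mouse 5 (32.0% of all genes) and 9 in mouse 6 (31.4%). When mouse 4 was the only ON-CR library, the log2 difference from the sham mean was 3.62 for Lcn2, 1.61 for Cd44, 1.55 for Serpina3n, 1.48 for Osmr and 1.28 for Vim, and for the members not called it was 0.71 for Cp, 0.70 for Nes, 0.58 for Emp1, 0.45 for Gfap and 0.16 for Steap4. None of the 10 was called with 2 residual degrees of freedom (0 genes higher and 1 lower among all genes).

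**Figure D4:**
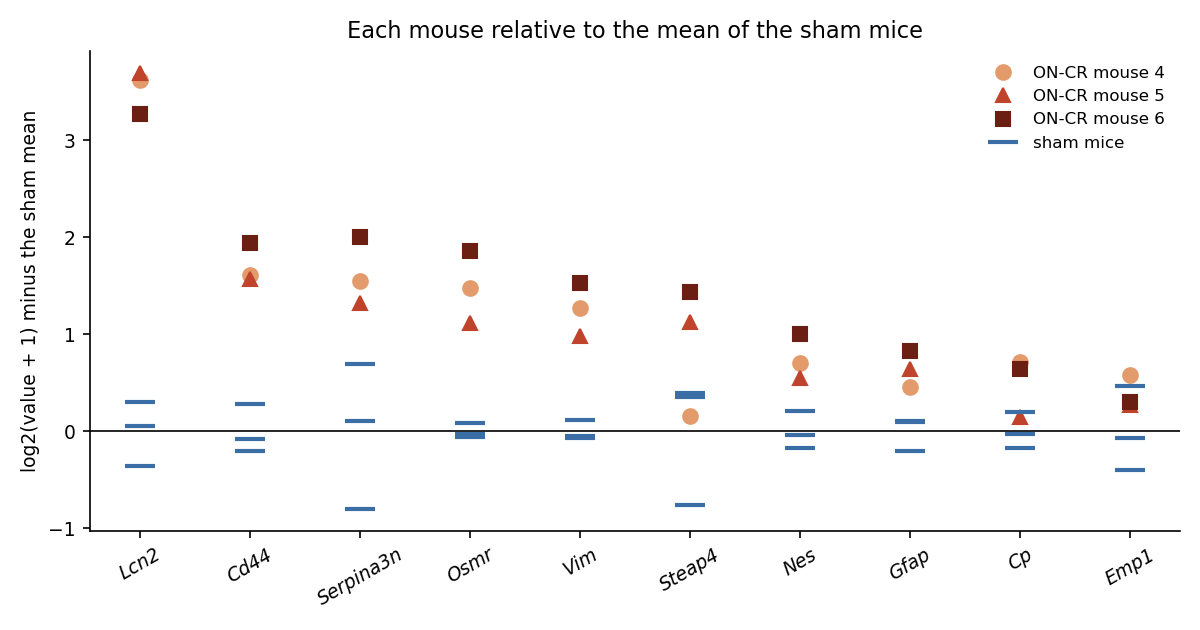
Log2(value + 1) of each mouse minus the mean of the sham mice, for each member, with ON-CR mice 4, 5 and 6 as circles, triangles and squares and sham mice as blue bars. Mouse 6 is highest for 7 of the 10 members, and Lcn2 is highest in mouse 5.

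Other genes of the astrocyte response were read from lists by class or pathway, and counts are over the listed genes found in the table (12 of 13 A1 genes, 5 of 10 Serpina3 paralogs, 9 of 11 neutrophil and 4 of 8 epithelial markers, and every gene of the other lists). The remaining listed genes were not analysed here. Of 5 further genes of the general reactive response, 3 were higher and 1 lower, with a median log2 fold change of 1.70. S1pr3, a sphingosine 1-phosphate receptor, went from 1419 ± 140 (SD, n = 3) to 4953 ± 963 (SD, n = 3), which is 1.79 on the log2 scale (adjusted p = 0.000624 by limma). Timp1, an inhibitor of metalloproteinases, rose by 1.70 (adjusted p = 0.00150 by limma) and the chemokine Cxcl10 by 1.95 (adjusted p = 0.0407 by limma). Cxcl10 lost its call under the robust fit (0.168) and when any single mouse other than ON-CR mouse 5 was left out. Hspb1, a small heat shock protein, went the other way, from 276, 518 and 440 in sham mice to 146, 96.3 and 121 in ON-CR mice (-1.73 on the log2 scale, adjusted p = 0.00814 by limma). Aspg did not pass (0.55, adjusted p = 0.198 by limma). Of 12 genes linked to inflammation-type (A1) astrocytes, 1 was higher and 0 lower (median 0.74), namely the complement component C3 (1.91 on the log2 scale, adjusted p = 0.00365 by limma). H2-D1, the most abundant of them, was at 0.77 (adjusted p = 0.297 by limma).

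Of 12 genes linked to ischemia-type (A2) astrocytes, 3 were higher and 0 lower (median 0.84). Tgm1, a transglutaminase that crosslinks proteins, was near the floor in sham mice at 6.37, 22.1 and 11.3 and rose to 269, 289 and 351, which is 4.56 on the log2 scale (adjusted p = 0.000624 by limma). Cd14, the lipopolysaccharide co-receptor that myeloid cells also express, rose by 1.19 (adjusted p = 0.0195 by limma) and the surface protein Cd109 by 1.06 (adjusted p = 0.00926 by limma). Emp1, a gene of the same class, was not called, as given above. Of 15 astrocyte identity markers 0 were higher and 1 lower, with a median of -0.15. The 1 was S100b, which fell by 0.75 on the log2 scale (adjusted p = 0.0185 by limma). Atp1b2, the most abundant of them, was at -0.11 (adjusted p = 0.736 by limma) and Aqp4 at 0.43 (adjusted p = 0.175 by limma). When every library was scaled to these 15 markers, an alternative added after seeing the data, the same 5 members were called. Their fold changes were 3.65 for Lcn2, 1.83 for Cd44, 1.75 for Serpina3n, 1.61 for Osmr and 1.39 for Vim. The members not called were at 1.03 for Steap4, 0.88 for Nes, 0.77 for Gfap, 0.63 for Cp and 0.51 for Emp1.

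Of 18 genes of oncostatin M and IL-6 family signalling, 1 was higher and 0 lower (median 0.39). This list covers the whole family and not the input of Osmr alone. Cntf, ciliary neurotrophic factor, which astrocytes make, was at 152, 166 and 120 in sham mice and 313, 308 and 457 in ON-CR mice, a difference of 1.28 on the log2 scale (adjusted p = 0.0132 by limma). The ligand Osm itself reached 8.49 at most after sham surgery and 15.6 after ON-CR, without overlap between the groups but on few reads (1.09, adjusted p = 0.331 by limma). Il6st, which encodes the gp130 partner of Osmr, was at -0.03 (adjusted p = 0.941 by limma). Stat3 was at 0.33 (adjusted p = 0.223 by limma) and its feedback inhibitor Socs3 at 1.09 (adjusted p = 0.0755 by limma).

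Partners of the other members moved in part. Of 12 genes of hyaluronan and osteopontin biology around Cd44, 2 were higher (median 0.19), the ligand Spp1 (osteopontin, 0.81, adjusted p = 0.0286 by limma) and the hyaluronan receptor Hmmr (1.86, adjusted p = 0.0450 by limma), which dividing cells also express. Of 13 iron and copper genes around Lcn2, Cp and Steap4, 1 was higher (median -0.16), the heme-degrading enzyme Hmox1 (1.08, adjusted p = 0.00855 by limma). The lipocalin 2 receptor Slc22a17 was at 0.00 (adjusted p = 0.997 by limma) and the ferritin chain Fth1, the most abundant of the list, at -0.53 (adjusted p = 0.264 by limma). Of 11 other filament genes, 0 were called (median -0.08), Synm, the partner of vimentin in filaments, being at -0.08 (adjusted p = 0.853 by limma). The 3 relatives of Emp1 (Emp2, Emp3 and Pmp22) had a median of -0.02 and 0 calls.

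**Figure D5:**
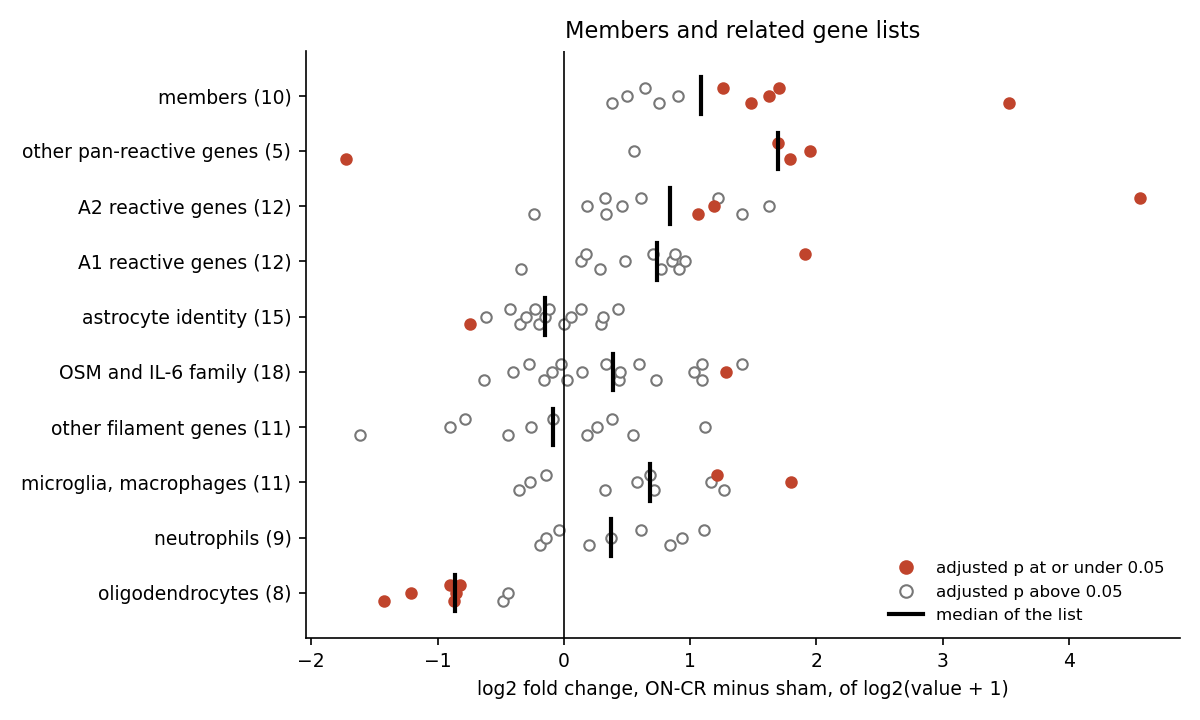
Log2 fold change, ON-CR minus sham, of log2(value + 1) for each gene of the members and 9 related lists, with filled points at an adjusted p at or under 0.05 by limma, open points above it and a black bar at the median of the list (genes of the list in brackets). The members have a median of 1.08 and the astrocyte identity markers of -0.15.

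Markers of other cells were read beside the members, since several members are not particular to astrocytes. Of 11 microglia and macrophage markers, 2 were higher (Cd68 by 1.80, adjusted p = 0.00128, and Aif1 by 1.22, adjusted p = 0.0260, both by limma), with a median of 0.68. The fold change was above 0 for 8 of the 11. It was below 0 for Tmem119 (-0.27), P2ry12 (-0.35) and Mrc1 (-0.14), which were not called, and Tmem119 was lower in every ON-CR mouse than in every sham mouse. The summed value of the 11 was 15235 to 19732 in sham mice and 19418 to 29268 in ON-CR mice. ON-CR mouse 5, at 19418, lay inside the sham range of the sum, while the called markers were above every sham mouse there too, Cd68 at 1822 against at most 794 and Aif1 at 842 against at most 635. Of 9 neutrophil markers, 0 were called (median 0.37), with sums of 222 to 569 in sham mice and 393 to 716 in ON-CR mice. S100a8, the first of them, was at 106, 26.6 and 27.2 in sham mice and 65.8, 74.4 and 114 in ON-CR mice, and Mpo was listed at 0 in sham mouse 2 and Mmp8 in ON-CR mouse 4. Csf3r, the most abundant of them, was at 170, 162 and 114 in sham mice and 462, 179 and 385 in ON-CR mice, without overlap (1.11 on the log2 scale, adjusted p = 0.121 by limma). Of 8 lymphocyte markers, 0 were called (median 0.93), and their sums of 166 to 397 in sham mice and 181 to 1318 in ON-CR mice were highest in mouse 6, where 7 members were also highest, and lowest of the ON-CR mice in mouse 5. The part of these cells in the members' values was not tested.

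Of 12 proliferation markers, 5 were higher and 0 lower (median 1.43), among them Mki67 (1.89, adjusted p = 0.0421 by limma) and Top2a (1.84, adjusted p = 0.00307 by limma). Of 10 neural progenitor markers 0 were called (median -0.06), Dcx, a marker of young neurons, being higher in every ON-CR mouse than in every sham mouse (0.63, adjusted p = 0.158 by limma). Of 8 oligodendrocyte markers, 6 were lower and 0 higher (median -0.86), Mbp, the major myelin protein, falling by 1.42 on the log2 scale (adjusted p = 0.0117 by limma). Among 8 Schwann cell markers, which share Mbp with that list, Egr2 was higher (2.04, adjusted p = 0.0250 by limma) and Mbp lower (median -0.22). The lists of 8 endothelial (median -0.12), 7 pericyte and smooth muscle (0.10), 8 fibroblast and meningeal (-0.48) and 5 red blood cell markers (-0.63) held 0 calls each. 4 epithelial markers also held 0 calls, but Bpifa1, an airway and conjunctival secretory gene, was at 7568 in sham mouse 3 and, among ON-CR animals, at 4579 in mouse 5 and 5894 in mouse 6, with at most 22.3 in the other 3 mice, a split that does not follow the surgery.

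The calls on these lists rested on few mice. Of the called list genes named above, S1pr3, Timp1, C3, Tgm1, Cd68 and Top2a were called in 6 of 6 limma fits with 1 mouse left out, and every other one lost its call without ON-CR mouse 6, most of them also without another mouse. With single mice left out, the genes called numbered 1 to 7 of the microglia and macrophage markers, 1 to 6 of the proliferation markers, 1 to 4 of either the A1 or the A2 genes, and 0 to 5 of the oligodendrocyte markers.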

How the data were processed

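RNA of optic nerves, labelled as from 3 sham and 3 ON-CR mice, was sequenced, and all 6 libraries were grouped by their labels. Reads were aligned and counted by the authors with DRAGEN against mm10 gene models, scaled by median normalization (Partek Flow 10.0, per the submitters' processing notes) and compared with DESeq2. The deposited values are therefore a signal: an estimated read count per gene divided by a single factor for each library. After division by the value of 1 read, 66.2% to 68.4% of values above 0 were whole within 0.02, so no count model was run. Depth was 17414091 to 23621006 estimated reads per library.

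Tests were run in R 4.3.3 with limma 3.58.1, on log2 of the value plus a pseudocount of 1 (mean-variance trend, two-sided, Benjamini-Hochberg over 25755 genes, threshold 0.05), with no filter on low values. Fold changes are on that scale and understate changes of low genes. Ratios were tested with an exact permutation test (scipy 1.17.1). The test was checked on simulated data. P-values measure the spread between these mice only. Alternatives were pseudocounts of 0.5 and 2, library-total, upper-quartile, TMM and astrocyte-marker scaling, a minimum mean value of 10, a robust fit, array weights, each mouse left out, and mouse 4 alone.

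The members, 23 lists of related genes and the tests were chosen with earlier results of these data known. Named genes are the members, list genes that passed the test (at most the 4 with the largest change), the most abundant and first gene of a list, Nf1, sex-linked transcripts and genes overlapping a member. A few others, such as Socs3, Stat3, Il6st, Synm and Aspg, were named after their values were seen. Gene positions and exon lengths are from GENCODE M21 (GRCm38), matched by symbol, and promoters from RefSeq (GRCm38.p6).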

Additional observations from a re-analysis of the deposited data

How the results depend on the processing

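Lcn2, Cd44, Osmr and Vim kept their direction and call under every alternative except mouse 4 alone, and no member changed direction. With mouse 4 as the only ON-CR library, the log2 fold changes were 3.62 for Lcn2, 1.55 for Serpina3n, 1.61 for Cd44, 1.48 for Osmr and 1.28 for Vim, Steap4 was at 0.16 and Gfap at 0.45, 0 members were called, and all genes gave 0 higher and 1 lower, with fewer samples behind the spread. Serpina3n (1.63) was not called under the robust fit. Gfap was called at 0.64 in the robust fit and 0.77 with the same library total. Nes was called at 0.75 in the robust fit, 0.74 with array weights, 0.88 with the same library total and 0.77 with the same upper quartile. With each mouse left out in turn, Serpina3n ranged from 1.23 to 1.97, Cp from 0.40 to 0.68 (called only without ON-CR mouse 5), and Nes from 0.62 to 0.86 (called only without ON-CR mouse 5). Steap4 ranged from 0.53 (without sham mouse 1) to 1.28 and Emp1 from 0.18 (without sham mouse 1) to 0.62 (without sham mouse 3), neither called in any of these fits. Counts over all genes then ranged from 39 (without ON-CR mouse 6) to 489 (without ON-CR mouse 5) higher and from 28 (without ON-CR mouse 6) to 365 lower. The count of genes called higher was 421 with the same library total and 388 with array weights, and of genes called lower 144 with astrocyte-marker scaling, an alternative chosen after seeing the data. Both scalings moved the median of all genes by 0.12 on the log2 scale, from 0.03 to 0.15. The cause of these differences was not tested. No paired analysis was possible because the mouse numbers differ between the groups. Steap4 rested on 13 to 64 estimated reads, the fewest of the members.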
